A study of Homo sapiens with 6 samples.

Results

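NF-kB is a family of dimeric transcription factors held in the cytoplasm by inhibitory IkB proteins, and 10 genes of this core were followed here: the subunit genes NFKB1, NFKB2, REL, RELA and RELB, the IkB genes NFKBIA, NFKBIB and NFKBIE, and the feedback regulators TNFAIP3 and BIRC3. They were taken by gene symbol from the deposited count table, and all 10 were found among its 30651 listed genes and passed the filter on low counts that left 15423 genes for testing. The libraries came from PC-3 cells, a human prostate cancer line first taken from a metastasis in bone, grown in DMEM/F12 with fetal bovine serum. The MTA1 group held 3 libraries, whose data columns carry the prefix shMTA1, the usual form for a short hairpin RNA against MTA1, and the Ctrl group held 3 libraries, whose columns carry the prefix NC. MTA1 belongs to NuRD, a complex that remodels nucleosomes and removes acetyl groups from histones, and the series title links it to oncogenic gene expression, so the question put to these genes is whether their RNA differed between the groups. Lentivirus and stable clone screening are named in the treatment protocol. How many hairpins or clones were used, and which control construct, is not given in the sources used here. No label says that the replicates were separate cultures, so the spread that the p-values measure may be technical.

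In resting cells IkB proteins cover the nuclear localization signal of the dimers. Receptors for TNF, interleukin 1 and bacterial products activate the IkB kinase, the phosphorylated IkB is marked with ubiquitin and destroyed, and dimers such as RELA with the processed product of NFKB1 enter the nucleus. A slower, non-canonical arm runs through the kinase encoded by MAP3K14, the processing of the NFKB2 product and RELB. Several target genes encode brakes on the pathway itself, above all NFKBIA and TNFAIP3, so their RNA is widely read as an output of the pathway as well as part of it. PC-3 cells are known for constitutive NF-kB activity.

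The libraries differed by group in several general ways. The 3 MTA1 libraries held 29909172 to 30938820 counts and the 3 Ctrl libraries 31726013 to 33849262. Mitochondrial transcripts took 7.10% to 7.77% of counts in the MTA1 group and 5.31% to 5.81% in Ctrl. MTA1 itself averaged 17.4 ± 0.660 CPM in the MTA1 group and 40.03 ± 1.47 CPM in Ctrl (SD, n = 3 each), which is 43.4% of the Ctrl level and the direction of a knockdown. Among markers of the line, KRT8, KRT18 and VIM were abundant, KLK3 was at or near 0, and HOXB13 stood at 0.623 CPM in the MTA1 group and 1.58 in Ctrl. Of the markers of other cell types, the 5 for fibroblasts summed to 34.1 to 35.95 CPM in the MTA1 group and 47.4 to 51.9 CPM in Ctrl. COL1A1 made up most of that gap, with 16.4 CPM in the MTA1 group and 31.6 CPM in Ctrl. PDGFRB was also lower in the MTA1 group (log2 fold change -0.50, edgeR adjusted p = 0.00306). COL1A2 had a log2 fold change of -0.59 that did not pass the test (edgeR adjusted p = 0.0598). LUM stood at 13.9 CPM in the MTA1 group and 12.6 CPM in Ctrl, and DCN had a log2 fold change of 0.47. Neither LUM nor DCN passed the test (edgeR adjusted p = 0.11 for LUM and 0.0827 for DCN). The 4 leukocyte markers measured summed to 1.06 to 1.51 CPM in the MTA1 group and 1.46 to 2.11 CPM in Ctrl, with PTPRC near 0. The 3 for endothelium summed to 10.8 to 11.1 CPM in the MTA1 group and 11.2 to 12.9 CPM in Ctrl. Nearly all of the endothelial sum was PECAM1, at 10.3 CPM in the MTA1 group and 11.3 CPM in Ctrl. The part of these markers of other cell types in the results was not tested.

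Binding motifs of the family stood in the promoter windows of most of these genes. RefSeq windows (GRCh38.p14) of 300 bases, from 250 before to 50 after a transcript start, were found for 8 of the 10 genes, and RELB and NFKBIE had none in the table used. The 10-base kB consensus, searched on both strands with overlapping matches allowed, was present in a window of 7 of the 8, against 17.3% of tested genes with a window and 13.3% of all genes in the table. RELA was the gene without it. By window, 8 of 13 held it, against 13.5% of the windows of tested genes and 11.3% of all windows. The windows of the pair of genes that changed most and of BIRC3, which held matches but did not pass the test, are shown, with the matches in capitals. The NFKBIA window lies at chr14:35404700-35404999 on the minus strand, that of TNFAIP3 at chr6:137867009-137867308 on the plus strand and that of BIRC3 at chr11:102317234-102317533 on the plus strand.
NFKBIA: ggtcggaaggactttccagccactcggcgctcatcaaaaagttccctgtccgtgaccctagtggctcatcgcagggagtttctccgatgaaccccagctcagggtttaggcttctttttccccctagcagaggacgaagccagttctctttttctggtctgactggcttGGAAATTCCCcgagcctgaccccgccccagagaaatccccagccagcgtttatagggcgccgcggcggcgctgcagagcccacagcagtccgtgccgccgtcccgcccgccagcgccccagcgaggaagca
TNFAIP3: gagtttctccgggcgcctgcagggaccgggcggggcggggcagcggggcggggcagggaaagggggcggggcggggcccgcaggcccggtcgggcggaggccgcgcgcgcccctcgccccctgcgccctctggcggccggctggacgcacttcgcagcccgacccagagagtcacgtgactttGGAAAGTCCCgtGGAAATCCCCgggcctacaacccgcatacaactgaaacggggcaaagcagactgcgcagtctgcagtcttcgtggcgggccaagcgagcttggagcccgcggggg
BIRC3: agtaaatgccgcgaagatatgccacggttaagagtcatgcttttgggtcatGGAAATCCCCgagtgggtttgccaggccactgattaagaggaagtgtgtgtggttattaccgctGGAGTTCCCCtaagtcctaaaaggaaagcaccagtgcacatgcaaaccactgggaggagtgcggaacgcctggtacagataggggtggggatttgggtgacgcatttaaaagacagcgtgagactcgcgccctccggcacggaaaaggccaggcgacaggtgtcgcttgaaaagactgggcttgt
The NFKBIA match began 81 bases before the start. The TNFAIP3 matches began 67 and 55 bases before it, and the BIRC3 matches 199 and 135 bases before it. NFKB1 held GGGAATTTCC, REL held GGGAAATTCC, and NFKBIB held GGGAATTTCC and, apart from it, GGGGGGCCCC near one of its starts. NFKB2 held GGGAATTCCC and GGGGCTTTCC near one start and GGGGCTTCCC and GGGACTTTCC near another. A match describes letters in a window and is not a measured binding site.

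RNA for NFKBIA, NFKBIE, TNFAIP3 and the subunit genes REL and RELB was lower in the MTA1 group. The subunit genes RELA, NFKB1 and NFKB2 did not pass the test. In the quasi-likelihood test of edgeR over all genes, with a threshold of 0.05 on the adjusted p, 6 of the 10 fell in the MTA1 group and 0 rose: TNFAIP3, NFKBIA, NFKBIE, REL, RELB and, at the margin, NFKBIB. At an unadjusted p under 0.05, 0 were higher in edgeR, 0 in DESeq2 and 0 in limma-voom. Of all tested genes 58.1% passed in either direction, 28.6% as lower and 29.5% as higher, so the number of these genes that passed is close to the background. The median log2 fold change of the 10 was -0.25, against 0.002 for all tested genes. The libraries of the groups did not overlap for 6 of the 10, against 62.7% of tested genes. In bulk RNA, less RNA in every cell and fewer cells with a high level cannot be told apart. Levels are in CPM, counts scaled by TMM to a common library size, with mean ± SD for n = 3 libraries. Each log2 fold change is MTA1 group over Ctrl and is given ± SE.

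**Figure D1:**
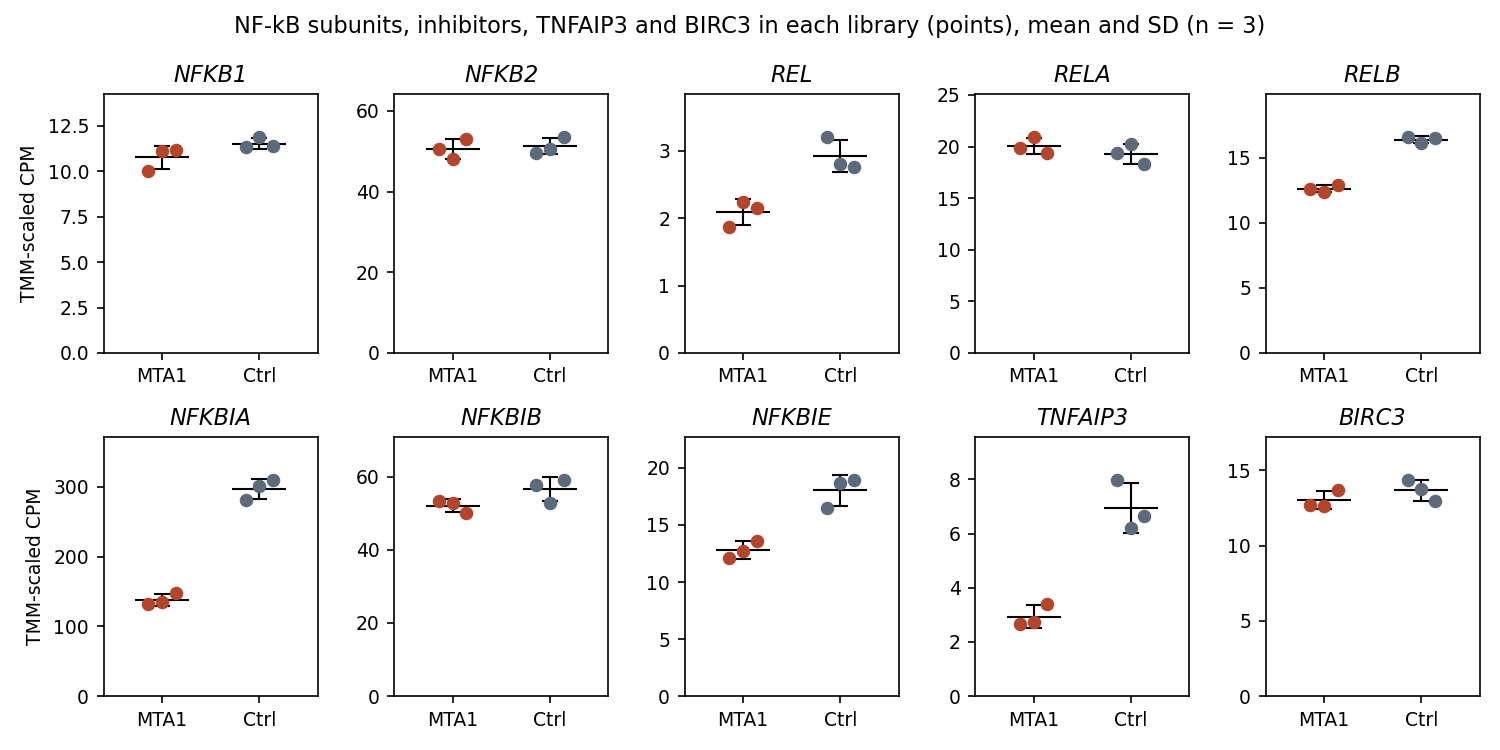
TMM-scaled CPM of each of the 10 genes in the MTA1 (left) and Ctrl (right) libraries; points are libraries, the bar and whiskers the mean and SD (n = 3 each), and each panel has its own axis from 0. The points of NFKBIA, TNFAIP3, NFKBIE, REL and RELB lie clearly apart between the groups, while those of NFKB2, RELA and BIRC3 overlap.

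NFKBIA (ENSG00000100906.11, chromosome 14) encodes IkB alpha, the inhibitor that is destroyed within minutes of stimulation and remade under NF-kB control. It had 131.5, 134 and 148 CPM in MTA1 replicates 1, 2 and 3, against 281, 301 and 309 CPM in Ctrl replicates 1, 2 and 3. Each MTA1 library was below every Ctrl library by a wide gap. The level was 138 ± 8.85 CPM in the MTA1 group and 297 ± 14.3 CPM in Ctrl, 46.4% of Ctrl (log2 fold change -1.11 ± 0.048, 95% interval -1.21 to -1.01, edgeR adjusted p = 2.69e-13). Of all tested genes, 4.64% had a change at least as large in either direction. The value was -1.11 ± 0.048 without the 20 most abundant and the mitochondrial genes.

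TNFAIP3 (ENSG00000118503.15, chromosome 6) encodes a ubiquitin-editing enzyme that ends signalling from TNF and interleukin 1 receptors. It was a low-abundance gene with 81, 87 and 106 counts in MTA1 replicates 1, 2 and 3 and 246, 203 and 219 counts in Ctrl replicates 1, 2 and 3. As levels these were 2.66, 2.74 and 3.42 CPM in the MTA1 libraries and 7.96, 6.20 and 6.66 CPM in the Ctrl libraries, with no overlap. Its fold change was the largest of the 10 genes, 42.5% of the Ctrl level (-1.24 ± 0.13, 95% interval -1.50 to -0.97, edgeR adjusted p = 5.29e-08), but its interval overlapped that of NFKBIA and the difference between the 2 genes was not tested. On the log2(FPKM + 1) scale, which understates changes of low genes, it was -0.52.

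BIRC3 (ENSG00000023445.16, chromosome 11) encodes a ubiquitin ligase of TNF receptor complexes that is itself an NF-kB target in many cells. It had 12.7, 12.6 and 13.7 CPM in the MTA1 libraries and 14.3, 13.7 and 12.9 CPM in the Ctrl libraries. The groups overlapped and the gene did not pass (-0.07 ± 0.068, 95% interval -0.21 to 0.07, edgeR adjusted p = 0.398). BIRC3, like NFKBIA and TNFAIP3, had kB matches in the window shown above; its interval did not overlap theirs, and the difference itself was not tested.

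NFKBIE (ENSG00000146232.17, chromosome 6) encodes IkB epsilon, a later-acting inhibitor. It had 12.1, 12.7 and 13.6 CPM in the MTA1 libraries and 16.5, 18.7 and 18.9 CPM in the Ctrl libraries, again without overlap. It fell to 70.9% of Ctrl (-0.50 ± 0.070, edgeR adjusted p = 4.62e-06). NFKBIB (ENSG00000104825.17, chromosome 19) encodes IkB beta, which is less tied to feedback. It had 53.3, 52.7 and 49.98 CPM in the MTA1 libraries and 57.8, 52.8 and 58.9 CPM in the Ctrl libraries, so that MTA1 replicate 1 lay above Ctrl replicate 2. It passed barely (-0.12 ± 0.050, edgeR adjusted p = 0.0489). The call ended in 12 of 18 alternatives, among them limma-voom (adjusted p = 0.0508), DESeq2 (0.0748), scaling by library size only (0.394), and leaving out MTA1 replicate 2 (0.0914), MTA1 replicate 3 (0.156), Ctrl replicate 1 (0.113) or Ctrl replicate 3 (0.189).

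**Figure D2:**
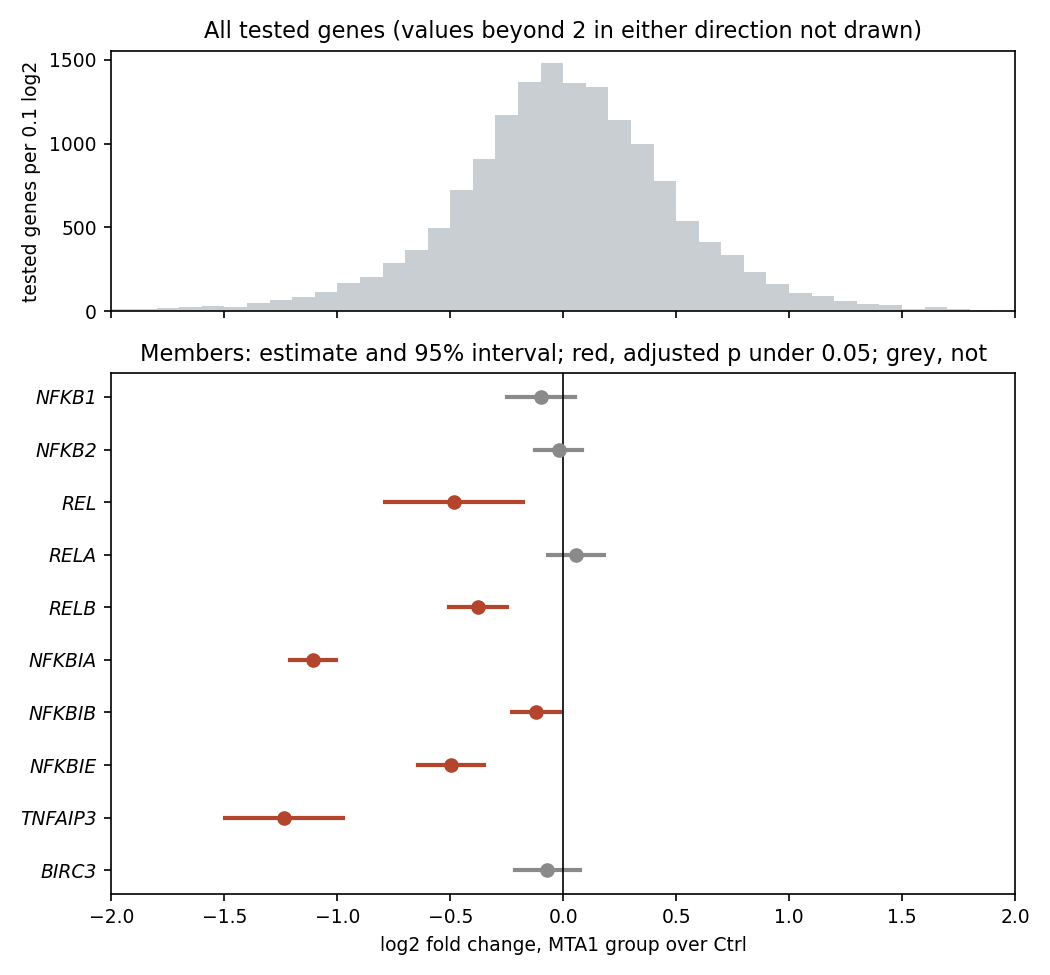
Change on the log2 scale, MTA1 group over Ctrl: above, the histogram of all tested genes within 2 in either direction; below, the 10 genes with their 95% intervals, red where the adjusted p was under 0.05. NFKBIA at -1.11 and TNFAIP3 at -1.24 lie in the lower tail of the histogram, and NFKB2, RELA, NFKB1 and BIRC3 lie near 0.

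Among the subunits, REL and RELB fell. REL (ENSG00000162924.15, chromosome 2) encodes c-Rel, best known from lymphocytes. It had 57, 71 and 67 counts in the MTA1 libraries and 99, 92 and 91 counts in the Ctrl libraries, or 1.87, 2.24 and 2.16 CPM in the MTA1 libraries against 3.20, 2.81 and 2.77 CPM in the Ctrl libraries. The groups did not overlap, and the level was 71.6% of Ctrl (-0.48 ± 0.15, 95% interval -0.79 to -0.18, edgeR adjusted p = 0.00804). The call ended when a minimum fold of 1.2 was asked for (adjusted p = 0.0728). In GENCODE 29 an overlapping transcript on the same strand covers 43.3% of the exonic bases of REL. The deposited counts do not list that transcript by its GENCODE 29 name. How reads in the shared bases were counted is not given, so the count of REL is uncertain there. Overlaps on the opposite strand covered 1.88% of the exonic bases of TNFAIP3 and 1.72% of those of NFKBIB, and whether counting used strand is not given in the sources used here. RELB (ENSG00000104856.14, chromosome 19) encodes the partner of the processed NFKB2 product in the non-canonical arm. It had 12.6, 12.3 and 12.9 CPM in the MTA1 libraries and 16.6, 16.1 and 16.5 CPM in the Ctrl libraries, the tightest replicates of the subunits. It fell to 77.0% of Ctrl (-0.38 ± 0.062, edgeR adjusted p = 2.92e-05).

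RELA, NFKB1 and NFKB2 did not pass. RELA (ENSG00000173039.19, chromosome 11), the main transactivating subunit of the canonical arm, had 19.9, 20.9 and 19.4 CPM in the MTA1 libraries and 19.4, 20.2 and 18.3 CPM in the Ctrl libraries (0.06 ± 0.059, 95% interval -0.07 to 0.18, edgeR adjusted p = 0.433). NFKB1 (ENSG00000109320.13, chromosome 4), whose product is both an IkB-like precursor and the source of a DNA-binding subunit, had 10.04, 11.1 and 11.1 CPM in the MTA1 libraries and 11.3, 11.9 and 11.4 CPM in the Ctrl libraries. The libraries of the groups did not overlap, by a narrow margin, and the gene did not pass (-0.10 ± 0.072, 95% interval -0.25 to 0.05, edgeR adjusted p = 0.254). NFKB2 (ENSG00000077150.20, chromosome 10), the matching precursor of the non-canonical arm, had 50.6, 48.1 and 53.1 CPM in the MTA1 libraries and 49.7, 50.6 and 53.5 CPM in the Ctrl libraries, with overlap (-0.02 ± 0.050, 95% interval -0.12 to 0.08, edgeR adjusted p = 0.762). Its sign turned positive with scaling by library size only (0.05). These intervals leave room for small changes in either direction.

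Per unit of length, the IkB genes NFKBIA and NFKBIB stood above every subunit gene, and TNFAIP3 and REL were the least abundant of the 10. In the deposited FPKM values, which the authors scaled for gene length and depth, NFKBIA stood at 52.6 ± 3.71 in the MTA1 group and 108 ± 5.61 in Ctrl, at the top of the order. NFKBIB came next at 20.2 ± 0.573 in the MTA1 group and 20.98 ± 1.07 in Ctrl. NFKB2, the leading subunit gene, followed at 9.71 ± 0.531 in the MTA1 group and 9.39 ± 0.366 in Ctrl. Below it came NFKBIE, with 4.49 ± 0.295 FPKM in the MTA1 group and 6.04 ± 0.476 in Ctrl, RELB, with 3.78 ± 0.107 in the MTA1 group and 4.69 ± 0.0321 in Ctrl, and RELA, with 3.32 ± 0.112 in the MTA1 group and 3.05 ± 0.170 in Ctrl. The libraries of each of these genes stood clear of those of its neighbour in the order. BIRC3, with 1.57 ± 0.0808 FPKM in the MTA1 group and 1.57 ± 0.0819 in Ctrl, and NFKB1, with 1.53 ± 0.0964 in the MTA1 group and 1.57 ± 0.0551 in Ctrl, overlapped each other and cannot be ranked. TNFAIP3, with 0.530 ± 0.0781 FPKM in the MTA1 group and 1.19 ± 0.151 in Ctrl, and REL, with 0.143 ± 0.0115 in the MTA1 group and 0.193 ± 0.0153 in Ctrl, were lowest. The order of the means was the same in the MTA1 group and in Ctrl.

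The sum of the IkB messages over that of the subunit messages was lower in the MTA1 group. NFKBIA, NFKBIB and NFKBIE together had 74.9, 75.96 and 81.3 FPKM in the MTA1 libraries and 129, 137 and 140.4 FPKM in the Ctrl libraries. The 5 subunit genes together had 18.3, 18.1 and 19.2 FPKM in the MTA1 libraries and 18.5, 19.1 and 19.1 FPKM in the Ctrl libraries. The inhibitor sum was separated between the groups, and the subunit sum overlapped. The ratio of the sums was 4.10, 4.21 and 4.24 in the MTA1 libraries and 6.94, 7.18 and 7.36 in the Ctrl libraries, 0.584 times Ctrl by the means. NFKBIA made up 66.7% to 69.98% of the inhibitor sum in the MTA1 group and 79.2% to 80.9% in Ctrl. Without NFKBIA the ratio was 1.34 ± 0.0563 in the MTA1 group and 1.43 ± 0.0543 in Ctrl, so the shift rested mainly on that gene. These are RNA levels, and protein was not measured here.

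**Figure D3:**
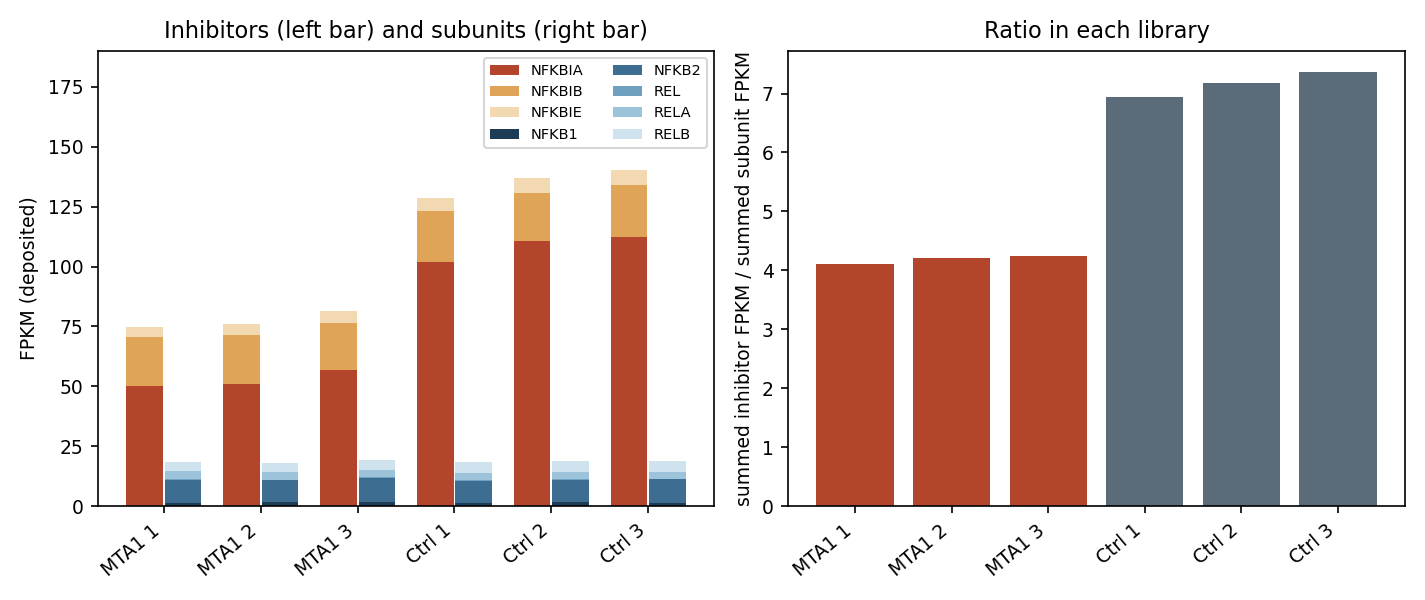
Deposited FPKM in each library: left, stacked sums of the 3 IkB genes (left bar) and the 5 subunit genes (right bar); right, the ratio of these sums. The ratio is 4.10 to 4.24 in the MTA1 libraries and 6.94 to 7.36 in the Ctrl libraries, and the red NFKBIA segment accounts for most of the gap.

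The nuclear IkB proteins, which bind dimers on DNA and modulate them instead of holding them outside the nucleus, went both ways. All 3 measured members passed, 2 higher and 1 lower, where 58.1% of all tested genes passed, 29.5% as higher and 28.6% as lower; these shares are the background for each list that follows, and no list was tested as a whole. BCL3, a coactivator of the NFKB1 and NFKB2 products, fell to 6.06 ± 0.684 CPM in the MTA1 group, against 10.3 ± 0.374 CPM in Ctrl (-0.77 ± 0.088, edgeR adjusted p = 3.05e-07). NFKBIZ, an inducible cofactor for cytokine genes, rose to 10.3 ± 0.284 CPM in the MTA1 group, against 7.77 ± 0.208 CPM in Ctrl (0.40 ± 0.075, edgeR adjusted p = 0.000128). NFKBID rose by 0.49 ± 0.20 on the log2 scale at about 1 CPM, a call that ended in 7 of 18 alternatives, such as DESeq2 (adjusted p = 0.12) and leaving out Ctrl replicate 1 (0.13) or Ctrl replicate 2 (0.131) or any MTA1 replicate (0.0537, 0.0671 and 0.112 for replicates 1, 2 and 3).

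Receptors that feed the pathway changed in both directions. Of 16 listed, 11 were tested, 6 rose and 3 fell, against 29.5% of all tested genes higher and 28.6% lower, and with so few genes no direction is read from the count. The median log2 fold change was 0.23. CD40, TLR1, TLR2, TLR3 and TLR5 were too low to test. TNFRSF12A, the receptor for the cytokine TWEAK, rose to 91.3 ± 2.75 CPM in the MTA1 group, against 37.8 ± 2.29 CPM in Ctrl (1.27 ± 0.050). TNFRSF11A, the receptor RANK of bone biology (0.99 ± 0.12), and IL1RAP, the co-receptor for interleukin 1 (0.89 ± 0.13), rose too. TLR4, which senses bacterial lipopolysaccharide (-0.72 ± 0.098), IL1R1, the interleukin 1 receptor itself (-0.45 ± 0.13), and IL17RC, a chain of the interleukin 17 receptor (-0.18 ± 0.054), fell. The call of IL1R1 ended without MTA1 replicate 3 (edgeR adjusted p = 0.0519) and on the log2(FPKM + 0.1) scale (limma adjusted p = 0.0502). That of IL17RC ended with scaling by library size only (-0.11, edgeR adjusted p = 0.0987) and on both FPKM scales (limma adjusted p = 0.148 and 0.15). The TNF receptor TNFRSF1A, chosen after its value was seen, rose as well (0.23 ± 0.047).

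The adaptors and kinases between receptors and IkB included genes that rose and genes that fell. Of 23 tested, 5 rose, 6 fell and 12 did not pass, with a median of -0.05, where 58.1% of all tested genes passed. IKBKG, the regulatory subunit of the IkB kinase, rose to 22.3 ± 2.21 CPM in the MTA1 group, against 14.3 ± 1.30 CPM in Ctrl (0.64 ± 0.075); it has a near-identical pseudogene that can share its reads. The scaffold CARD10 (0.54 ± 0.081) and the kinase IRAK1 (0.25 ± 0.040) rose. MYD88, the adaptor of toll-like and interleukin 1 receptors, fell to 5.69 ± 0.566 CPM in the MTA1 group, against 9.29 ± 0.682 CPM in Ctrl (-0.71 ± 0.093), as did IRAK4, the kinase it recruits (-0.48 ± 0.099), and TAB2, which reads ubiquitin chains for the kinase of MAP3K7 (-0.31 ± 0.059). Chosen after their values were seen, MAP3K14, the kinase that drives the non-canonical arm, rose (0.58 ± 0.11), and CHUK, a catalytic subunit of the IkB kinase, did not pass (0.08 ± 0.10).

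Ubiquitin enzymes of the pathway changed in both directions. Of these 10 genes 4 rose and 6 fell in edgeR, where 58.1% of all tested genes passed, and the median was -0.26. DESeq2 called 2 higher and 5 lower, and a minimum fold of 1.2 left 1 higher and 2 lower. BIRC2, the paralog of BIRC3, fell to 10.98 ± 0.819 CPM in the MTA1 group, against 15.4 ± 1.09 CPM in Ctrl (-0.49 ± 0.075), whereas BIRC3 did not pass; the difference between the paralogs was not tested. UBE2V1, a cofactor in making ubiquitin chains whose reads can be shared with a readthrough gene (-0.38 ± 0.057), and the ligase ITCH, a partner of the TNFAIP3 product (-0.28 ± 0.042), fell. RNF31 (0.45 ± 0.086) and RBCK1 (0.16 ± 0.048) of the linear ubiquitin ligase rose, as did BTRC, which recognises phosphorylated IkB (0.33 ± 0.11). The call of BTRC ended without MTA1 replicate 2 (edgeR adjusted p = 0.0613) or Ctrl replicate 3 (0.0631) and in DESeq2 (0.0515), and that of RBCK1 without MTA1 replicate 2 (0.054) or Ctrl replicate 1 (0.055).

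Other brakes on the pathway included the partner TNIP1, which rose. Of 12 tested in this list, 2 rose, 2 fell and 8 did not pass, with a median of 0.06, where 58.1% of all tested genes passed, and TNIP3 was too low to test. Scaling by library size only and the log2(FPKM + 0.1) scale each gave 4 higher and 0 lower. TNIP1, which binds the TNFAIP3 product and helps it to end signalling, rose to 309 ± 9.004 CPM in the MTA1 group, against 232 ± 2.60 CPM in Ctrl (0.41 ± 0.039, edgeR adjusted p = 2.0e-08). NKRF, a repressor of NF-kB sites, rose (0.26 ± 0.056). CYLD, a deubiquitinase that opposes the kinase complexes (-0.23 ± 0.082), and NKIRAS1, a small GTPase-like partner of IkB beta (-0.28 ± 0.095), fell. Each of these falls ended without Ctrl replicate 3 (edgeR adjusted p = 0.0873 for CYLD and 0.122 for NKIRAS1), that of CYLD also without MTA1 replicate 1 (0.101) and that of NKIRAS1 without MTA1 replicate 2 (0.129). Both also ended with scaling by library size only (edgeR adjusted p = 0.0933 for CYLD and 0.0651 for NKIRAS1). TNFAIP3 and its partner TNIP1 passed in opposite directions.

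**Figure D4:**
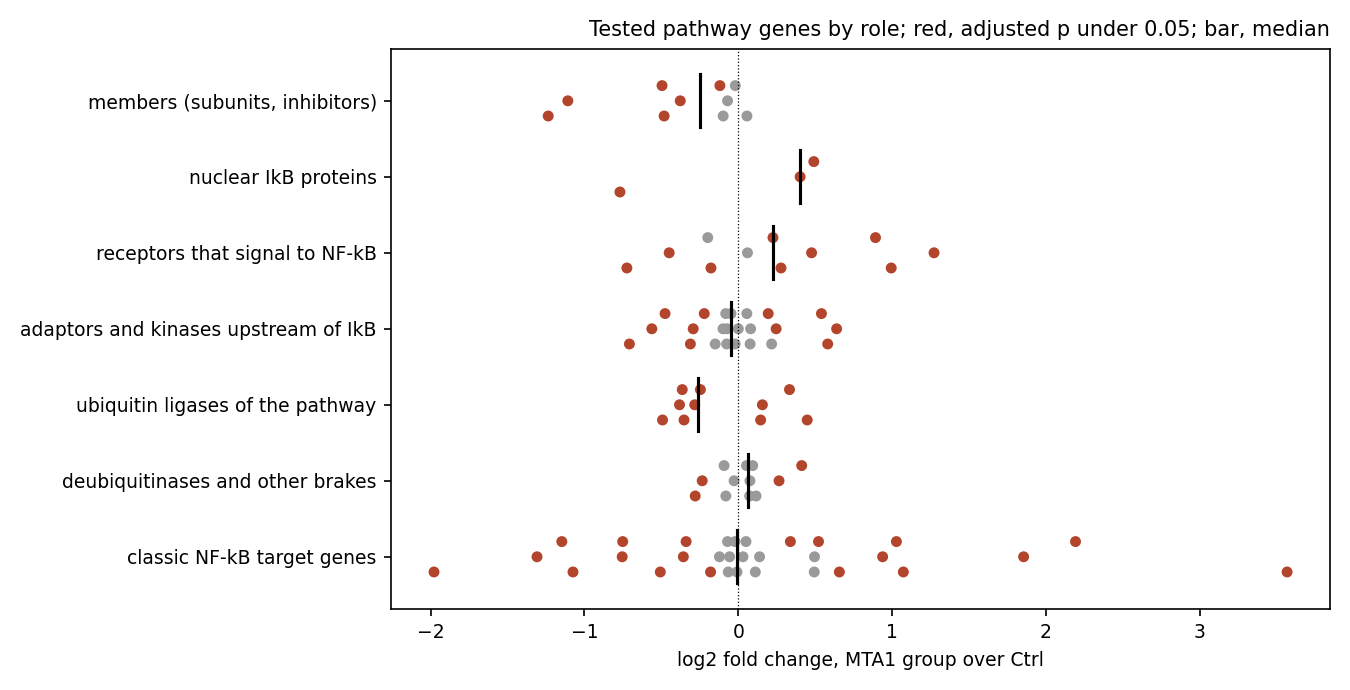
Change on the log2 scale (MTA1 group over Ctrl) for the tested genes of each list; each point is a gene, red where the adjusted p was under 0.05 and grey otherwise, the vertical bar is the list's median, and vertical offsets only separate points. The 10 core genes lie between -1.24 and 0.06, and the classic targets spread from -1.98 to 3.57 around a median of -0.01.

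Genes long used as NF-kB targets changed in both directions, at rates close to those of all genes. Of 37, 31 were tested, 9 rose and 10 fell, where 29.5% of all tested genes were higher and 28.6% lower, and the median was -0.01 against 0.002 for all tested genes. CXCL1, IL1B, TNF, CSF2, VCAM1 and BCL2A1 were too low to test. IL6 had 53.4 ± 1.17 CPM in the MTA1 group and 112 ± 3.27 CPM in Ctrl (-1.07 ± 0.043), EDN1, the precursor of the vasoconstrictor endothelin, fell by 1.31 on the log2 scale, and the stress gene GADD45B changed by -0.75 ± 0.056. Upward, LCN2, an iron-siderophore carrier, had 30.9 ± 3.03 CPM in the MTA1 group and 2.59 ± 0.572 CPM in Ctrl (3.57 ± 0.11), the pentraxin PTX3 changed by 2.19 ± 0.088 and the adhesion molecule ICAM1 by 0.94 ± 0.048. Chosen after their values were seen, the chemokine CCL20 (-1.98 ± 0.21) and the prostaglandin synthase PTGS2 (-1.15 ± 0.11) fell, and TNFRSF9 (1.85 ± 0.18) rose. SOD2 (-0.07 ± 0.042) and IER3 (-0.06 ± 0.040), both chosen likewise, did not pass.

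The kB consensus stood in windows of targets that moved either way. Of the tested targets with a RefSeq window, 11 held the consensus, and of these 3 rose and 6 fell (median log2 fold change -0.34). Of all tested genes 29.5% were higher and 28.6% lower. Tested targets without a window were left out of this split, and among them more rose than fell. The risers with it were LCN2, PTX3 and TNFRSF9, and IL6, CCL20 and GADD45B were among those with it that fell. Of the 11 without it, 2 rose and 3 fell (median 0.03). No test was made of this difference.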

How the data were processed

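Per the labels' protocols, PC-3 total RNA was isolated with TRIzol, treated with DNase I and made into stranded total RNA libraries for paired reads. The authors deposited whole-number counts per gene without normalization, and FPKM values that they scaled for gene length and depth and rounded to 2 decimals, per the file headers and values. The aligner, the counter and its strand setting, the build and the annotation were not given in the sources used here, and the submitters' processing notes name DESeq2 without role or version. Columns headed shMTA1 were assigned to the MTA1 samples by their names, and columns headed NC to Ctrl by prefix and number.

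The tests used edgeR 4.0.16 in R 4.3.3: filterByExpr at its default minimum count of 10 (15423 genes kept, 15228 removed), TMM scaling, and a 2-sided quasi-likelihood F test whose design held group alone, over all 6 libraries. P-values were adjusted by Benjamini-Hochberg across the tested genes, and 0.05 was the threshold. Intervals are at 95%. Standard errors were derived from the F statistic. Depth was 29909172 to 33849262 counts per library, and the biological coefficient of variation between replicates was 4.45%. Between replicates, chi-square per degree of freedom was 3.25 to 9.12, where sampling noise alone gives about 1. No library was thus a copy of another, but this does not show that they came from separate cultures. Alternatives used limma 3.58.1 and DESeq2 1.42.0. The script was tested on simulated data in which far fewer genes changed than passed here. The labels do not say whether replicate numbers pair the libraries, and the main test did not pair them.

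The members and the pathway lists were chosen with earlier results of these data known. Named were all members, MTA1 and, from each list, up to 3 genes with the smallest p in each direction. Other genes are marked as chosen after their values were seen. Promoter windows came from RefSeq (GRCh38.p14), and exon overlaps from GENCODE 29, which may not be the annotation the authors counted on.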

Additional observations from a re-analysis of the deposited data

How the results depend on the processing

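The 18 alternatives were other scalings, filters, tests and units, a replicate block, a minimum fold, and each library left out in turn. No core gene was called higher in any of them. The number called lower was 4 with the minimum fold of 1.2, where REL and NFKBIB were lost, and 5 or 6 in the others, including 5 to 6 with a library left out. NFKBIA (-1.16 to -1.03), TNFAIP3 (-1.36 to -0.52), NFKBIE (-0.56 to -0.36) and RELB (-0.39 to -0.25) passed in all 18. NFKB2 never passed, and its sign turned to 0.0488 with scaling by library size only, 0.0477 with log2(FPKM + 0.1) and 0.0436 with log2(FPKM + 1), with a range of -0.0538 to 0.0188 when a library was left out. The ratio of inhibitor to subunit sums was 0.575 times Ctrl in CPM in place of 0.584.

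With a minimum fold of 1.2, 4650 genes passed in place of 8954. That setting left 1 nuclear IkB gene higher and 1 lower, 4 receptors higher and 1 lower, and 3 adaptors or kinases higher and 3 lower. It also left 1 ubiquitin enzyme higher and 2 lower, 1 other brake higher and 0 lower, and 8 classic targets higher and 7 lower. DESeq2 called 1 nuclear IkB gene and 2 ubiquitin enzymes higher. Scaling by library size only and log2(FPKM + 0.1) each called 4 other brakes higher and 0 lower, log2(FPKM + 1) called 0 of them lower, and log2(FPKM + 0.1) called 1 receptor lower. With a library left out, 1 to 2 nuclear IkB genes and 2 to 4 ubiquitin enzymes were higher, and 0 to 3 other brakes were lower. A minimum fold is a stricter test by construction, and the cause of the other changes was not tested.

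With the replicate number as a block, 9139 genes passed and the number of core genes called lower was 6. Deviations of same-numbered libraries had correlations of 0.09, -0.03 and 0.02, and those of different-numbered libraries ranged from -0.12 to 0.096. With 3 libraries per group these values cannot decide whether the numbers pair the samples, and the labels do not say. Low counts limit REL and TNFAIP3 most, whose standard errors were the widest of the core genes.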
